A study of Mus musculus with 48 samples.

Results

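Dietary fat is taken up and repackaged by the absorptive cells of the small intestine, and 10 genes of that route were followed here through the first 4 weeks of mouse life. They were chosen by symbol from the annotated tables: Cd36, Fabp1, Fabp2, Mogat2, Dgat2, Mttp, Apob, Apoa1, Apoa4 and Apoc3. The table of estimated counts holds 54532 genes, 21986 of which passed the filter on low counts and were tested, among them all 10 of these genes. Duodenum, the first 2 cm after the stomach outlet, and ileum, the last 2 cm before the caecum, came from C57Bl/6J mice of both sexes, with no allele or drug treatment named. The mice were killed at day 0, 2, 4, 6 or 8 or at week 2, 3 or 4 after birth, and each region and age has 3 numbered samples, 48 in all. All pups stayed with the dam until day 21 and received chow from then on. The labels call the housing germ-free and the tissue whole thickness. They do not say that the 3 samples of a group are 3 mice, so p-values measure only the spread between these samples.

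Fat digestion releases fatty acids and monoglycerides in the gut lumen. CD36 is a membrane protein that binds fatty acids, and FABP1 and FABP2 are the liver-type and intestinal-type proteins that bind them in the cytosol. MOGAT2 and DGAT2 rebuild triglyceride by acylating monoglyceride and then diglyceride. MTTP, the microsomal triglyceride transfer protein, loads that triglyceride onto apolipoprotein B, the structural protein of the chylomicron, and apolipoproteins A-I, A-IV and C-III travel on the finished particle. Milk is rich in fat and chow is rich in starch, so suckling and weaning are the textbook setting in which this route is studied.

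Total counts ranged from 16824021 to 65042327 per sample in the 46 samples used. The samples labelled day 6 sample 3 looked exchanged between the regions and were left out of every comparison, so day 6 has 2 samples per region. Levels are CPM, a gene's count as a share of the library total after trimmed-mean (TMM) scaling, given per 1e+06 counts. CPM is not divided by gene length, so it is compared between samples and never between genes. The 10 genes together took between 1.27% and 7.72% of a sample's counts. In whole tissue, fewer cells of a type and less RNA per cell cannot be told apart. Replicates of a group are given as mean ± SD with n = 3, or n = 2 at day 6.

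The regions carried their markers, with exceptions. Gata4, a regulator of the proximal intestine, was at 111 to 186 CPM in duodenum and 21.1 to 85.9 CPM in ileum. A sum of 4 duodenum markers was not higher in duodenum at every age. Its duodenum and ileum means were 965 and 863 CPM at day 0 and 959 and 930 CPM at day 2. At day 4 they were 615 and 684 CPM and at day 6 462 and 644 CPM, and from day 8 on the duodenum mean was higher. A sum of 4 ileum markers had the higher mean in ileum at every age. Fabp6, the bile acid binding protein of the ileum, was at 825 to 1046 CPM in ileum at week 3 and at 0.672 CPM or less in duodenum from week 3 on. Ileum week 4 sample 1 stood apart from its group. Its Fabp6 level was 41.6 CPM against 1256 and 1936 CPM in the other two, its level of the bile acid transporter Slc10a2 was 57.6 against 643 and 282 CPM, and its Gata4 level was 85.9 against 21.1 and 22.3 CPM. The steps and regional differences that rest on ileum week 4 are therefore given with and without this sample. Ileum week 4 sample 3 differed in other ways. It had the lowest total count of the 46 samples, 16824021, and the highest share of mitochondrial counts, 35.2%, against 26.9% and 22.1% in samples 1 and 2. Its summed absorptive enterocyte markers were at 10597 CPM, against 25710 and 20050 CPM in samples 1 and 2. Summed smooth muscle markers (6 of 6 detected in every group) reached only 4.68 to 194 CPM although the tissue is labelled whole thickness.

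Several of the 10 genes sit next to each other in the genome (GRCm38). Apoa1 (9:46228580-46230466, plus strand), Apoc3 (9:46232933-46235636, minus strand) and Apoa4 (9:46240696-46243459, plus strand) lie within 14880 bp with no further annotated gene between them. Dgat2 (7:99153658-99182719) and Mogat2 (7:99219084-99238619), both on the minus strand, are neighbours with a gap of 36364 bp that holds no annotated gene. The others are alone: Cd36 on chromosome 5 (17781690-17888801), Fabp1 on 6 (71199827-71205023), Fabp2 on 3 (122895072-122899506), Mttp on 3 (138089854-138144968) and Apob on 12 (7977648-8016835). Genes annotated on the opposite strand overlap Apoa4 (Gm47528 and Gm10680), Fabp2 (4933405D12Rik), Mogat2 (Gm45012) and Mttp (Gm43691 and Trmt10a). Whether the counting used strand is not given in the sources used here, so reads of these pairs cannot be told apart.

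The RefSeq table for GRCm38.p6 gives a promoter window for 7 of the 10 genes, all but Apoc3, Mogat2 and Dgat2. Shown here are 2 pairs whose levels part from each other in the results below: the cytosolic binding proteins Fabp1 and Fabp2, and the neighbours Apoa1 and Apoa4. Each run starts where the RefSeq window starts, ends at the base before the gene start in GENCODE M21 and is written on the plus strand, which is the strand of all 4 genes. Capitals mark matches to CAAAGNNCA, an HNF4-type motif (HNF4 factors are regulators of enterocyte genes), searched on both strands. The coordinates are 6:71199629-71199826 for Fabp1, 3:122894822-122895071 for Fabp2, 9:46228380-46228579 for Apoa1 and 9:46240594-46240695 for Apoa4.
Fabp1: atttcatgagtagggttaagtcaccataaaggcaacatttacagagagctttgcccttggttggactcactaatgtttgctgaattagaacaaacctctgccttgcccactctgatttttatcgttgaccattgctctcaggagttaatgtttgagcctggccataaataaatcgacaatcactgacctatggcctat
Fabp2: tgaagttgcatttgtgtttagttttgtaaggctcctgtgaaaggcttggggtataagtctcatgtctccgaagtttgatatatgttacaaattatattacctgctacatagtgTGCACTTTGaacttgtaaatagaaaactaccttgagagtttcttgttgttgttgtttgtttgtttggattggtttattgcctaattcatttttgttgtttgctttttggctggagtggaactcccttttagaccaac
Apoa1: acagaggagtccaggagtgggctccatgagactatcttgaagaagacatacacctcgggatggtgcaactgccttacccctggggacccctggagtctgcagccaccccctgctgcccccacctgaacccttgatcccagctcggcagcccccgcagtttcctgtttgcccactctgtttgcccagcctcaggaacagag
Apoa4: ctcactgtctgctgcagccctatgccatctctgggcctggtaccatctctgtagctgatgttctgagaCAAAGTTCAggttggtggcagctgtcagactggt

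In the 250 bases before the RefSeq start, CAAAGNNCA occurred in 3 of the 7 windows (Fabp2, Apoa4 and Apob), beside 5.488% of the 32851 windows of the same length in the table. The CDX2-type motif TTTATNG, after the intestinal factor CDX2, occurred in 3 of 7 (Fabp1, Fabp2 and Apob), beside 9.811%. The GATA-type motif AGATAA occurred in 0 of 7, beside 9.988%. No 2 matches overlapped in these windows, and a match is a match of letters, not a binding site.

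**Figure D1:**
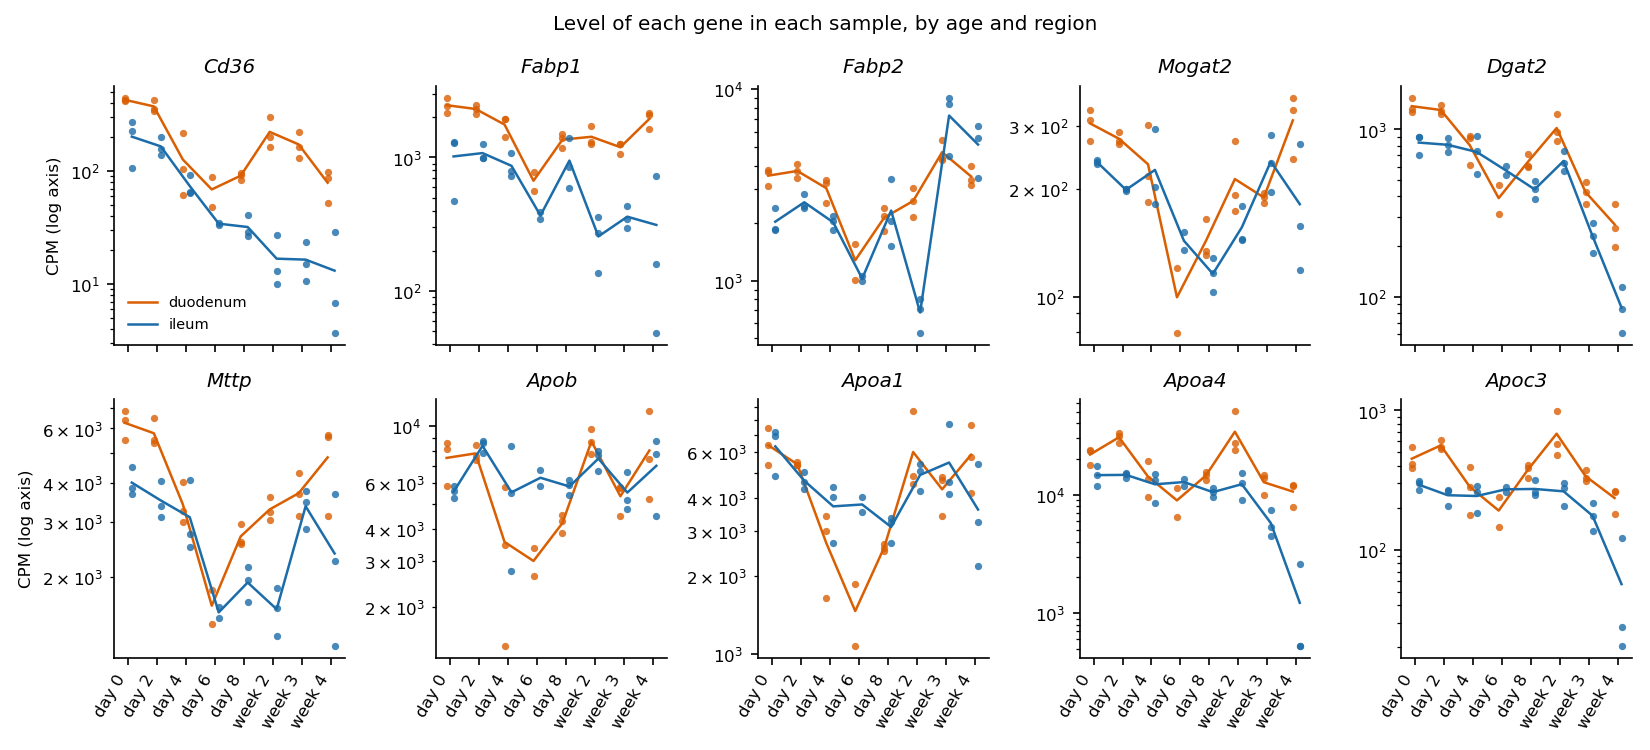
Level of each of the 10 genes (CPM, log axis) by age in duodenum (orange) and ileum (blue); points are samples (3 per group, 2 at day 6) and lines join the group means. Cd36, Dgat2, Apoa4 and Apoc3 are lowest in ileum at week 4, and Fabp2 in ileum goes from 683 CPM at week 2 to 7298 CPM at week 3.

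The age series asks how the program of fat handling changes from birth to weaning. Levels of 9 of the 10 genes differed between ages in duodenum (all but Fabp1) and of 9 of 10 in ileum (all but Apob), at an adjusted p under 0.05 in edgeR's quasi-likelihood test. Of all genes tested, 67.4% passed in duodenum and 58.7% in ileum, so these counts say little about the 10 genes. DESeq2 called 10 of 10 in duodenum and 9 in ileum. Without ileum week 4 sample 1 the ileum count was again 9 of 10, beside 57.6% of all genes. The ileum call of Apoa1 (adjusted p = 0.0302) was lost when any of ileum day 0 sample 1, day 0 sample 3, day 8 sample 1 or week 4 sample 2 was left out (0.0506 to 0.0836).

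Step by step, the duodenum showed a trough at the end of the first week. Summed absorptive enterocyte markers were low there too. Their duodenum means were 6527 CPM at day 2, 2279 at day 6, 2973 at day 8 and 5045 at week 2. The part of these cells in the trough was not tested. None of the 10 genes passed between day 0 and day 2 (6.80% of all genes did), with 0 at an unadjusted p under 0.05 and 0 by DESeq2. Between day 2 and day 8, 8 of 10 fell, beside 15.2% of all genes. Between day 8 and week 2, 4 of 10 rose (6.75% of all genes). At week 3 against week 2, 3 fell (10.6%) and 1 rose (7.70%), and at week 4 against week 3, 1 fell (4.96%) and 1 rose (7.75%). From day 0 to week 4, 4 of 10 fell (20.1%) and 0 rose. Neighbouring steps share samples, so a fall and the rise after it are not independent.

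In ileum the single step with most calls was week 3 against week 2 (5 of 10, beside 26.8% of all genes). Again 0 of 10 passed between day 0 and day 2 (5.20% of all genes), with 0 at an unadjusted p under 0.05 and 0 by DESeq2. Between day 2 and day 8, 4 fell (5.74%), and between day 8 and week 2, 2 fell (2.47%). At week 3 against week 2, 3 rose (12.9%) and 2 fell (13.9%), and at week 4 against week 3, 3 fell (7.81%). From day 0 to week 4, 7 of 10 fell (20.4%) and 1 rose (21.5%). The counts by step depended on the fit. With only the compared groups in each model, 6 were called from day 2 to day 8 (21.7% of all genes). In those models 5 were called to week 2 (19.5%), 5 to week 3 (35.5%) and 1 to week 4 (9.18%).

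Cd36, which binds fatty acids at the cell surface, fell 15.5-fold in ileum over the 4 weeks. Its ileum levels at day 0 were 106, 227 and 271 CPM, and at week 4 they were 28.9, 3.69 and 6.81 CPM. The 28.9 CPM is sample 1, and no week 4 sample reached the lowest day 0 sample. The log2 fold change was -3.95 (SE 0.54, adjusted p = 2.6e-07), and -5.34 without ileum week 4 sample 1. Between day 2 and day 8 alone the level dropped by 2.37 on the log2 scale (SE 0.50, adjusted p = 0.0029), from 165 ± 30.0 to 32.0 ± 7.54 CPM.

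In duodenum Cd36 went down, partly back and down again. Day 0 samples were at 421, 444 and 412 CPM and day 8 samples at 92.6, 83.4 and 96.6 CPM. Week 2 samples were at 302, 164 and 199.6 CPM, all above day 8, yet the step did not pass (log2 1.29, SE 0.48, adjusted p = 0.064). Week 4 samples were at 52.1, 86.0 and 98.2 CPM, below every day 0 sample, with a log2 fold change of -2.44 (SE 0.50, adjusted p = 0.00016).

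Cd36 is also made by cells other than enterocytes, and some of their markers moved with it. Summed blood endothelium markers (6 of 6 detected) were at 107 to 205 CPM in duodenum at day 0 and 9.62 to 10.5 CPM at week 4, and at 49.9 to 218 and 15.4 to 46.9 CPM in ileum. Summed macrophage markers (6 of 6) were at 109 to 137 CPM in duodenum at day 0 and 14.6 to 25.1 CPM at week 4, and at 88.2 to 109 and at most 23.4 CPM in ileum. At day 8 blood endothelium markers were at 8.81 to 14.2 CPM in duodenum and 56.8 to 70.2 CPM in ileum. Macrophage markers at day 8 were at 63.7 to 67.9 CPM in duodenum and 108 to 135 CPM in ileum. The part of these cells in the change of Cd36 was not tested. Adipocyte markers gave sums of 42.2 to 233 CPM that were nearly all Cidec (213 CPM of the mean at duodenum day 0), and Adipoq, the defining adipocyte gene, was at 0.558 CPM or less in every sample.

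Fabp1, the liver-type binding protein, had a lower mean in ileum than in duodenum at every age, a difference called from week 2 on. At day 0, 2, 4 and 6 no ileum sample of Fabp1 reached the lowest duodenum sample, but the difference did not pass. In duodenum its means ranged from 669.6 ± 151 CPM (day 6) to 2459.6 ± 324 CPM (day 0), and the age effect missed the threshold in edgeR (adjusted p = 0.059) and was called by DESeq2. Ileum samples were at 469.9, 1304 and 1280.1 CPM at day 0 and at 359, 137 and 275 CPM at week 2. At week 4 they were at 731, 48.6 and 159 CPM, so sample 1 was several times above the other two. The log2 fold change from day 0 to week 4 in ileum was -1.70 (SE 0.48, adjusted p = 0.0047), and -3.34 without that sample.

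The step of Fabp1 from day 8 to week 2 in ileum (log2 -1.88, SE 0.49, adjusted p = 0.017) depended on single samples. It was lost without ileum day 8 sample 1 (adjusted p = 0.19), week 2 sample 2 (0.093) or week 2 sample 3 (0.065). Its day 8 samples were at 1405, 587 and 851 CPM.

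Fabp2, the intestinal-type binding protein, had its lowest ileum mean at week 2, with higher levels at day 8 and week 3. Day 6 was low too, with ileum samples at 1059 and 996 CPM. Ileum samples were at 3398, 1526 and 2062 CPM at day 8 and at 712, 533 and 805 CPM at week 2. At week 3 they were at 4470.4, 9042 and 8383 CPM, so the groups on both sides of week 2 lay wholly above it. The fall from day 8 to week 2 was -1.77 (log2, SE 0.25, adjusted p = 0.00046) and the rise from week 2 to week 3 was 3.42 (SE 0.27, adjusted p = 7.5e-13), which is 10.7-fold. Both calls held when each sample was left out. At week 4 ileum samples were at 6452, 3462 and 5539.6 CPM, above the 1849 to 2397 CPM of day 0 (log2 1.34, SE 0.25, adjusted p = 2.8e-05, and 1.10 without week 4 sample 1).

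The lowest duodenal mean of Fabp2 was at day 6 (1280 ± 390 CPM), not at week 2. It fell from 3749 ± 299.9 CPM at day 2 to 2138 ± 301 at day 8 (log2 -0.81, SE 0.24, adjusted p = 0.0093), and the step from day 8 to week 2 was 0.29 (SE 0.24, adjusted p = 0.49). It rose from 3045, 2165 and 2626 CPM at week 2 to 4297, 5447 and 4355 CPM at week 3 (log2 0.85, SE 0.25, adjusted p = 0.011). The first call was lost without duodenum day 8 sample 2 (adjusted p = 0.056), and the second without duodenum week 2 sample 2 (0.076) or week 3 sample 2 (0.069). The step from week 2 to week 3 differed between the regions by 2.57 (log2, SE 0.35, adjusted p = 2.8e-05), the one such difference that passed among the 10 genes, beside 0.755% of all genes in that direction. The change from day 0 to week 4 differed by 1.35 (SE 0.35, adjusted p = 0.016, 3.14% of all genes in that direction; 1.14 without ileum week 4 sample 1), a call lost without duodenum week 4 sample 3, ileum day 0 sample 1 or ileum week 4 sample 3 (0.0506 to 0.0515).

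The 2 acyltransferases parted after week 2. Dgat2, which adds the last acyl chain, fell in both regions. Duodenum samples were at 1243, 853 and 965 CPM at week 2, at 484, 422 and 359.6 CPM at week 3 and at 198, 259 and 356 CPM at week 4. Ileum samples were at 634, 567 and 743 CPM at week 2, at 278, 232 and 183 CPM at week 3 and at 114, 84.3 and 60.7 CPM at week 4. In neither region did the week 3 samples overlap those of week 2.

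The fall of Dgat2 from week 2 to week 3 was -1.27 in duodenum (log2, SE 0.22, adjusted p = 3.2e-05) and -1.49 in ileum (SE 0.22, adjusted p = 1.6e-06). Against day 0, week 4 was lower by -2.35 (SE 0.23, adjusted p = 8.8e-11) and -3.28 (SE 0.24, adjusted p = 3.8e-14, and -3.57 without ileum week 4 sample 1). These 4 calls held when each sample was left out. The further fall from week 3 to week 4 was called in ileum (-1.42, SE 0.22, adjusted p = 1e-05, and -1.69 without ileum week 4 sample 1). In duodenum (-0.64, SE 0.22, adjusted p = 0.049) it was lost without week 3 sample 1 or 2 or week 4 sample 1 or 2 (0.085 to 0.211).

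Earlier, Dgat2 had fallen between day 2 and day 8 by -1.04 in duodenum (SE 0.22, adjusted p = 0.00037) and -0.88 in ileum (SE 0.22, adjusted p = 0.0098). The ileum call was lost without day 8 sample 1 (adjusted p = 0.083). Its rise from 638 ± 62.7 CPM at day 8 to 1021 ± 201 CPM at week 2 in duodenum (log2 0.68, SE 0.22, adjusted p = 0.030) was lost without any one of the 3 day 8 samples or week 2 sample 1 (0.0506 to 0.217).

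In duodenum Mogat2, which acylates monoglyceride, ended near where it began. Duodenum samples were at 332, 311 and 273 CPM at day 0 and at 242, 360.0 and 332 CPM at week 4 (log2 0.03, SE 0.22, adjusted p = 0.94). In between they were at 165, 131 and 134 CPM at day 8, below every day 2 sample (log2 -0.95, SE 0.22, adjusted p = 0.00087). The rise from week 3 (189.6 ± 5.79 CPM) to week 4 (311 ± 61.6 CPM) was 0.72 (log2, SE 0.22, adjusted p = 0.024). It was lost when any sample of either group except week 4 sample 1 was left out (0.063 to 0.109).

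In ileum Mogat2 dropped by 0.78 on the log2 scale from day 2 (199 ± 1.52 CPM) to day 8 (116 ± 12.6 CPM; SE 0.22, adjusted p = 0.020). It then rose by 0.61 from week 2 (156 ± 20.2 CPM) to week 3 (239 ± 43.7 CPM; SE 0.22, adjusted p = 0.034). The first call was lost without any day 2 sample or without day 8 sample 1 or 3 (0.0525 to 0.126). The second was lost without week 2 sample 1 or 2 or week 3 sample 2 or 3 (0.059 to 0.165). Week 4 samples were at 268, 158 and 119 CPM. They did not pass against day 0 (log2 -0.39, adjusted p = 0.15) or against week 3 (-0.40, adjusted p = 0.24). Without ileum week 4 sample 1 both falls were called, at -0.83 (adjusted p = 0.0025) and -0.81 (adjusted p = 0.0077).

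Mttp, the transfer protein that lipidates apolipoprotein B, had its lowest duodenal mean at day 6. Duodenum samples began at 6832, 6404 and 5526 CPM on day 0. They were at 1417 and 1825 CPM at day 6 and 2961, 2596 and 2559 CPM at day 8, and ended at 3154, 5652 and 5729 CPM at week 4. The fall from day 2 to day 8 was -1.10 (log2, SE 0.25, adjusted p = 0.00077), and week 4 did not pass against day 0 (-0.37, SE 0.25, adjusted p = 0.24). No later step in duodenum passed for Mttp.

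Ileal Mttp stayed low for longer. Its samples were at 1599, 1295 and 1847 CPM at week 2 and at 3495, 3777 and 2864 CPM at week 3, a rise of 1.10 (log2, SE 0.25, adjusted p = 0.00079) that held when each sample was left out. The earlier fall from day 2 to day 8 (-0.87, SE 0.25, adjusted p = 0.022) was lost without day 2 sample 1 or 3 or day 8 sample 1 or 3 (0.0515 to 0.097). Week 4 samples were at 3693, 2257 and 1202 CPM, lower than day 0 by -0.75 (SE 0.25, adjusted p = 0.014). Without ileum week 4 sample 1 that difference was -1.26, and it was lost without ileum day 0 sample 2 (adjusted p = 0.056) or week 4 sample 3 (0.133).

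Apob, the structural protein of the chylomicron, varied least in the ratio of its highest to its lowest group mean, 2.90. In ileum its means lay between 5526 ± 962 CPM (week 3) and 8371 ± 463 CPM (day 2), and the age effect did not pass (adjusted p = 0.45). In duodenum it fell from 7827 ± 549 CPM at day 2 to 4216 ± 329 CPM at day 8 (log2 -0.89, SE 0.32, adjusted p = 0.027) and rose to 8717 ± 995 CPM at week 2 (1.05, SE 0.32, adjusted p = 0.021). Both calls were lost without any one of the 3 day 8 samples. The first was lost too without day 2 sample 1 (0.052 to 0.087 in all) and the second without week 2 sample 1 (0.055 to 0.105 in all).

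Apoa1, the gene of apolipoprotein A-I, followed a course like that of Apob in duodenum. Day 2 samples were at 5488, 5361 and 5343 CPM, and the pair from day 6 at 1075 and 1861 CPM. Day 8 samples were at 2671, 2494 and 2579 CPM, and those of week 2 at 8673, 4528 and 4860.1 CPM. The fall from day 2 to day 8 was -1.06 (log2, SE 0.29, adjusted p = 0.0043) and the rise to week 2 was 1.22 (SE 0.29, adjusted p = 0.0045). The rise was lost without duodenum week 2 sample 1 (log2 0.86, adjusted p = 0.092).

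In ileum Apoa1 was lower at week 4 (5404, 3244 and 2192 CPM) than at day 0 (7209.9, 4853 and 6922 CPM), by -0.81 (log2, SE 0.29, adjusted p = 0.023). The groups overlapped. The difference was -1.26 without ileum week 4 sample 1, and it was lost without ileum day 0 sample 1 or 3 or week 4 sample 2 or 3 (adjusted p 0.070 to 0.153).

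Apoa4, whose product rises in lymph after a fatty meal, had the widest course of the apolipoproteins. Duodenum samples were at 32958, 27629 and 31181 CPM at day 2, at 15681, 13379.8 and 14573 CPM at day 8, and at 51117, 23926 and 27214 CPM at week 2. Week 3 samples were at 14561, 13717 and 9980.4 CPM and week 4 samples at 7939.5, 11835 and 12139 CPM. Day 2 and week 2 were thus the high points and week 2 sample 1 lay far above the other two.

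The duodenal steps of Apoa4 were -1.07 from day 2 to day 8 (log2, SE 0.38, adjusted p = 0.026), 1.23 to week 2 (SE 0.38, adjusted p = 0.024) and -1.42 to week 3 (SE 0.38, adjusted p = 0.0062). The first was lost without day 2 sample 1 or 3 or any day 8 sample (0.052 to 0.081), the second without any day 8 sample or week 2 sample 1 (0.0597 to 0.243), and the third without week 2 sample 1 (-1.005, adjusted p = 0.091). Week 4 was lower than day 0 by -1.04 (SE 0.38, adjusted p = 0.026), a call lost without day 0 sample 1 or 3 or week 4 sample 1 (0.064 to 0.134).

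In ileum Apoa4 held a steady level until week 2 and then fell. Day 0 samples were at 14567, 11839 and 17525 CPM and week 2 samples at 15191, 9039 and 12602 CPM. Week 3 samples were at 5338, 7495 and 4449.8 CPM, and those of week 4 at 2615, 525 and 525 CPM. Each of the last 2 groups lay wholly below the one before it. The fall from day 0 to week 4 was -3.58 (log2, SE 0.41, adjusted p = 4.1e-09), which is 12.0-fold, and -4.85 without ileum week 4 sample 1.

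By step, ileal Apoa4 fell by 1.09 on the log2 scale from week 2 to week 3 (SE 0.38, adjusted p = 0.028) and by 2.24 from week 3 to week 4 (SE 0.39, adjusted p = 5.4e-05; 3.48 and 1.9e-09 without sample 1). The first step was lost without week 2 sample 1 or 3 or week 3 sample 1 or 3 (0.062 to 0.121). The change from day 0 to week 4 was larger in ileum than in duodenum by -2.54 (SE 0.54, adjusted p = 0.0034), a difference that 2.85% of all genes also showed in that direction.

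Apoc3, whose product slows the clearance of triglyceride-rich particles, moved with its neighbour Apoa4. Duodenum samples were at 993, 476 and 576 CPM at week 2 and at 373, 314 and 326 CPM at week 3. Ileum samples were at 313, 267 and 301 CPM at day 0 and at 122, 20.4 and 28.1 CPM at week 4. The ileal fall was -2.37 (log2, SE 0.38, adjusted p = 3.7e-06, and -3.65 without ileum week 4 sample 1), of which -1.63 lay between week 3 and week 4 (SE 0.37, adjusted p = 0.0017, and -2.88 without that sample).

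The duodenal calls of Apoc3 were frail. The fall from week 2 to week 3 was -1.01 (log2, SE 0.37, adjusted p = 0.049), and it was lost when any sample of either group except week 2 sample 2 was left out (0.057 to 0.313). The fall from day 0 to week 4 was -0.94 (SE 0.37, adjusted p = 0.039), and it was lost when any of its 6 samples was left out (0.0517 to 0.171).

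Hepatocytes also make Apoa1, Apob, Apoc3 and Fabp1, so liver markers were set beside them. Their sum was at 136 to 183 CPM in ileum at day 0 (9 of 10 detected), 46.8 to 56.1 CPM in duodenum at day 0 (10 of 10) and 3.41 to 12.2 CPM at week 4. Alb, the defining liver transcript, was at 1.22 CPM or less in every sample. Pancreas markers reached 629 CPM in duodenum day 2 sample 1 and 193 CPM or less elsewhere. The part of these cells was not tested.

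The comparison of ileum with duodenum asks where along the gut the route is most expressed. At every age where several of the 10 genes were called, except day 6, those genes were lower in ileum. Ileum was lower for 2 of 10 genes at day 0 (3.14% of all genes), for 2 at day 2 (3.97%) and for 2 at day 8 (22.5%). Week 2 had 7 lower genes (11.8%), week 3 had 4 (6.90%) and week 4 had 7 (13.9%). At day 6 it was higher for 2 of 10 (17.8%). At day 4 the count was 0 of 10 (26.6% of all genes in either direction), with 2 at an unadjusted p under 0.05 and 0 by DESeq2.

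**Figure D2:**
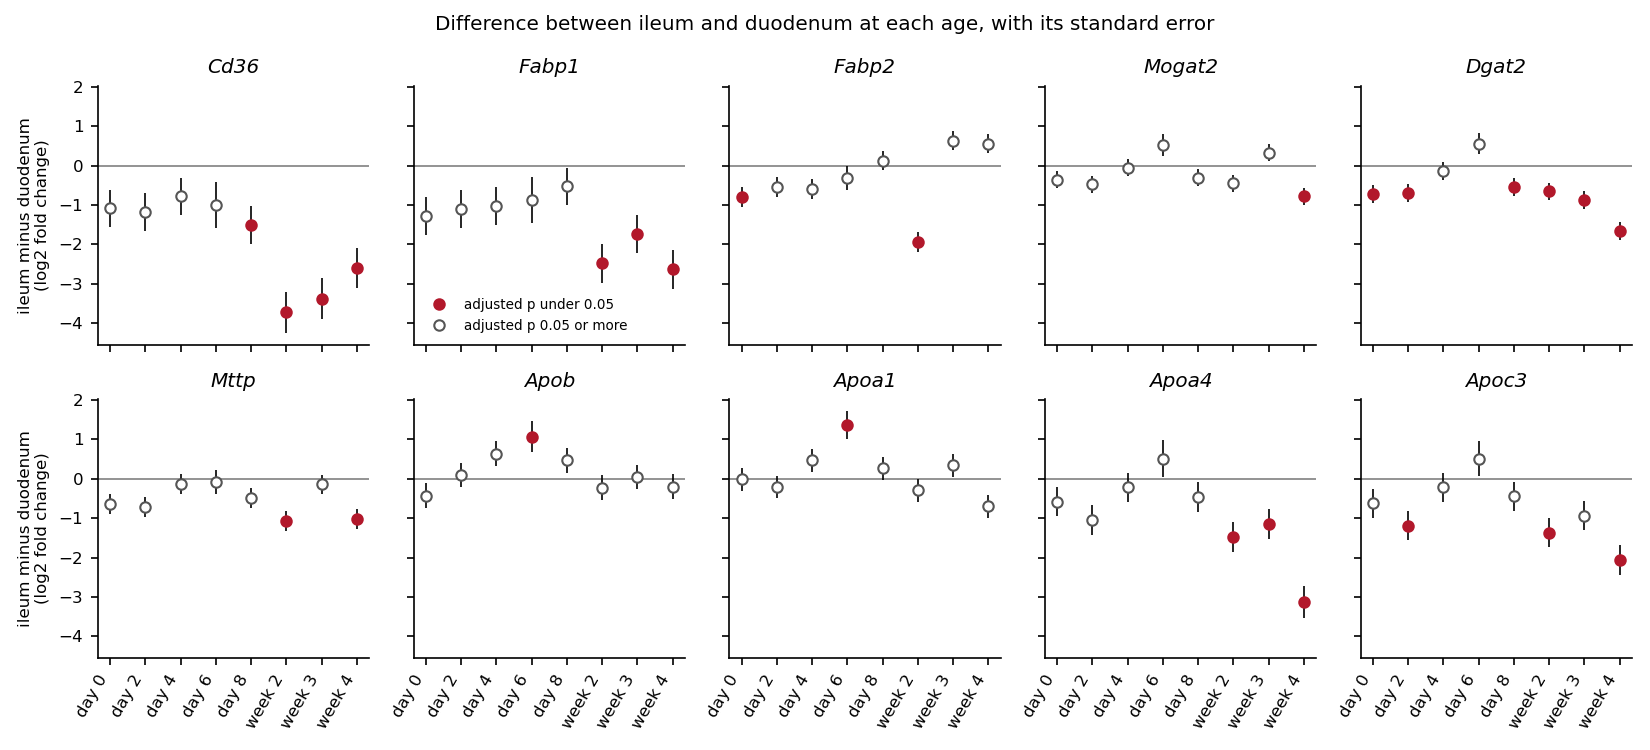
Ileum minus duodenum (log2 fold change, bars are 1 standard error) at each of the 8 ages for each gene; filled red points have an adjusted p under 0.05. Cd36 lies between -0.78 and -3.72 at all ages, Apob lies between -0.43 and 1.07, and Fabp2 goes from -1.93 at week 2 to 0.63 at week 3.

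Cd36 and Fabp1 showed the widest regional gap at week 2. Cd36 was at 27.4, 9.94 and 13.0 CPM in ileum against 302, 164 and 199.6 CPM in duodenum (log2 -3.72, SE 0.53, adjusted p = 5e-06). Fabp1 was at 359, 137 and 275 CPM against 1717, 1269 and 1297 CPM (-2.48, SE 0.50, adjusted p = 0.00048). Fabp2 was lower by -1.93 (SE 0.25, adjusted p = 7.1e-07) and Mttp by -1.06 (SE 0.25, adjusted p = 0.0021). In all 4 genes no ileum sample reached the lowest duodenum sample, and these 4 calls held when each sample was left out.

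Apoa4 (log2 -1.47, SE 0.38, adjusted p = 0.0049), Apoc3 (-1.37, SE 0.37, adjusted p = 0.0067) and Dgat2 (-0.66, SE 0.22, adjusted p = 0.028) made up the 7 at week 2. All 3 calls were lost without duodenum week 2 sample 1 (0.057, 0.065 and 0.154), and that of Dgat2 also without ileum week 2 sample 1 (0.082) or 2 (0.121) and with same-numbered samples of the regions taken as a replicate block (0.061). Apob and Apoa1 did not pass at week 2, at -0.22 (SE 0.32) and -0.29 (SE 0.29), nor did Mogat2 at -0.45 (SE 0.22).

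At week 3 the lower genes in ileum were Cd36 (log2 -3.38, SE 0.52, adjusted p = 3.1e-05), Fabp1 (-1.73, SE 0.48, adjusted p = 0.015), Apoa4 (-1.15, SE 0.38, adjusted p = 0.038) and Dgat2 (-0.87, SE 0.22, adjusted p = 0.0067). The call of Cd36 held when each sample was left out. Fabp1 was lost without ileum week 3 sample 1 (0.052) or 3 (0.062), Dgat2 without ileum week 3 sample 3 (0.062), and Apoa4 without duodenum week 3 sample 1 or 2 or ileum week 3 sample 1 or 3 (0.088 to 0.169). Fabp2 was at 4470.4 to 9042 CPM in ileum and 4297 to 5447 CPM in duodenum, overlapping groups (0.63, SE 0.24, adjusted p = 0.077).

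At week 4 Apoa4 was lower in ileum by -3.12 (log2, SE 0.41, adjusted p = 7.9e-07), Fabp1 by -2.64 (SE 0.50, adjusted p = 0.00026), Cd36 by -2.60 (SE 0.51, adjusted p = 0.00042) and Apoc3 by -2.05 (SE 0.38, adjusted p = 0.00017). Dgat2 followed at -1.65 (SE 0.23, adjusted p = 1.7e-06), Mttp at -1.02 (SE 0.25, adjusted p = 0.0030) and Mogat2 at -0.78 (SE 0.22, adjusted p = 0.0085). Ileum week 4 sample 1 lay above the lowest duodenum sample for Mttp (3693 against 3154 CPM) and Mogat2 (268 against 242 CPM). The groups of these genes thus overlapped, and those of the other called genes did not. The call of Mogat2 was lost without ileum week 4 sample 3 (0.067). Without ileum week 4 sample 1 the differences grew to -4.36, -4.24, -3.96, -3.30, -1.92, -1.50 and -1.19 in the same order, and Apoa1 was called too (-1.13, adjusted p = 0.0059).

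**Figure D3:**
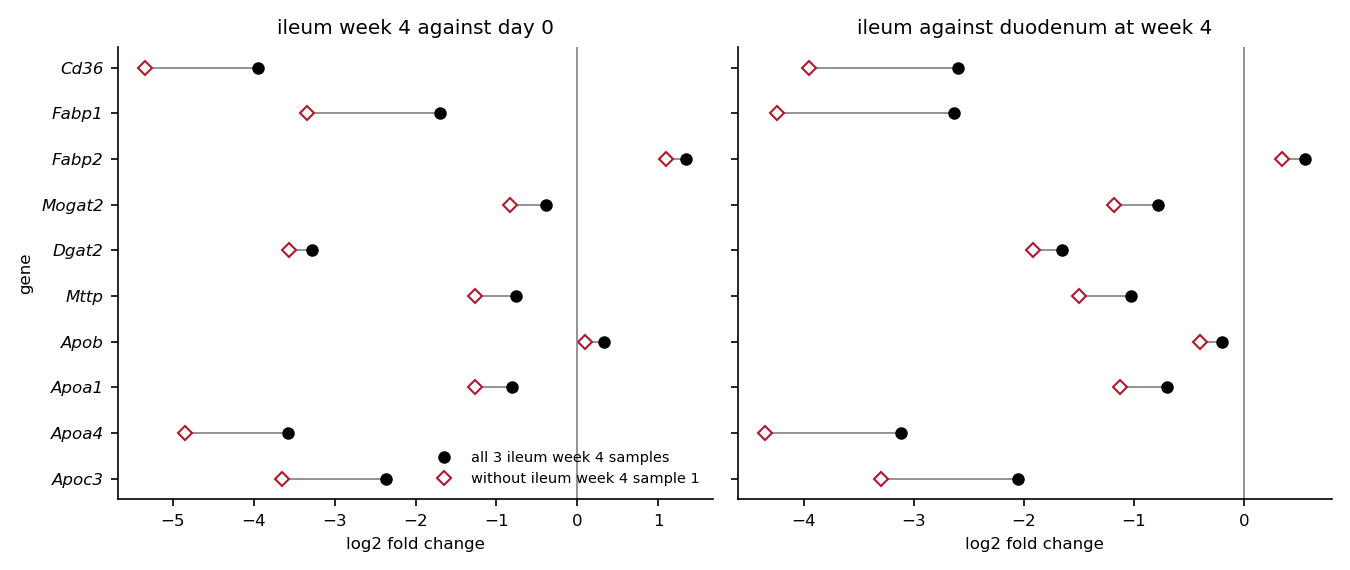
Log2 fold changes of the 10 genes for ileum week 4 against day 0 (left) and ileum against duodenum at week 4 (right), with all 3 ileum week 4 samples (black) and without sample 1 (open red diamonds). Without it every gene lies further to the left, for example Fabp1 against day 0 goes from -1.70 to -3.34.

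That single sample set much of what the week 4 ileum comparisons could show. Without it 8 of 10 genes fell and 1 rose between day 0 and week 4 (20.2% and 19.7% of all genes in that fit), 8 fell between week 3 and week 4 (8.87%), and 8 were lower than in duodenum (15.7%). When each model held just the groups being compared, with all their samples, the counts went the other way: 5 of 10 called in place of 8 against day 0, 1 in place of 3 against week 3, and 2 in place of 7 against duodenum. All-gene counts fell too in those models, from 9210 to 6435, from 3534 to 1527 and from 6234 to 2491 genes called in either direction. Apoa4 and Dgat2 were the 2 that were called there against duodenum.

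At the youngest ages the regional calls were few and frail. Dgat2 was lower in ileum at day 0 (log2 -0.72, adjusted p = 0.041), day 2 (-0.69, 0.043) and day 8 (-0.54, 0.047), Fabp2 at day 0 (-0.80, 0.042), Apoc3 at day 2 (-1.19, 0.037) and Cd36 at day 8 (-1.51, 0.014). Each was lost when single samples were left out. For Dgat2 at day 0 and day 2 and Apoc3 at day 2 any of the 6 samples sufficed (0.061 to 0.214, 0.065 to 0.188 and 0.070 to 0.160). For Fabp2 any but ileum day 0 sample 2 sufficed (0.084 to 0.176), for Dgat2 at day 8 any but ileum day 8 sample 2 (0.062 to 0.162), and for Cd36 ileum day 8 sample 2 or 3 (0.0517 each). With same-numbered samples as a replicate block the calls of Dgat2 were lost at day 0 (0.082), day 2 (0.085) and day 8 (0.083), and Fabp1 was called at day 0 (0.035).

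In the fit of all 16 groups, day 6, with 2 samples per region, was the one age with genes called higher in ileum. They were 2 of 10, beside 17.8% of all genes. Apoa1 was at 3537 and 4022 CPM in ileum against 1075 and 1861 CPM in duodenum (log2 1.36, SE 0.36, adjusted p = 0.0031), and Apob at 5883 and 6724 against 2641 and 3378 CPM (1.07, SE 0.39, adjusted p = 0.030). Apoa1 was lost without duodenum day 6 sample 1 (0.089) and Apob without any 1 of the 4 samples (0.067 to 0.188). With the left-out day 6 samples put back as labelled, neither was called (0.754 and 0.798). Group means of both genes were also higher in ileum at day 4 and day 8, where neither passed in the fit of all 16 groups.

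Over all ages, the regional difference itself changed with age for 7 of the 10 genes, beside 22.4% of all genes. Those were Fabp2 (adjusted p = 1.8e-05), Apoa4 (0.00070), Dgat2 (0.00095), Cd36 (0.0041), Apoc3 (0.022), Apoa1 (0.025) and Mogat2 (0.032). The first 4 held when each sample was left out. Apoa1 and Apoc3 were lost without duodenum day 6 sample 1 (0.106 and 0.064) or ileum day 6 sample 2 (0.077 and 0.052). Mogat2 was lost without duodenum day 2 sample 1, day 6 sample 1 or week 3 sample 2 or 3, or without ileum day 6 sample 1 or 2 or week 3 sample 2 (0.0507 to 0.092). Without ileum week 4 sample 1 the count was 9 of 10, beside 24.8% of all genes.

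Summed epithelial markers also moved with age. Summed CPM of 10 epithelial markers (10 of 10 detected) was between 5008 and 9240 in every sample up to week 2 and between 9695 and 17549 at weeks 3 and 4. Summed absorptive enterocyte markers (8 of 8) were lowest in duodenum at day 6 (1882 and 2676 CPM) and day 8 (2775 to 3311 CPM) and were at 10597 to 28169 CPM at week 4. Divided by the epithelial sum of the same sample, called genes kept their sign for 4 of 4 at week 3 against week 2 in duodenum and 3 of 5 in ileum. From day 0 to week 4 they kept it for 4 of 4 in duodenum and 8 of 8 in ileum. Between the regions they kept it for 7 of 7 at week 2 and 7 of 7 at week 4. The mean epithelial sum rose from 6909 to 13906 CPM in duodenum and from 6899 to 13757 CPM in ileum between day 0 and week 4. Division by a rising sum can only deepen a fall, so the falls could not lose their sign. Duodenum and ileum means were close at week 2 (7081 and 6764 CPM) and week 4, so division could change little there. The called genes that kept their sign were also counted by overlap of their groups on the divided scale. Groups did not overlap for 3 of these 4 genes at week 3 in duodenum and for 7 of these 8 at week 4 in ileum. In the other comparisons no gene that kept its sign had overlapping groups. Overlap on that scale was not counted for all genes.

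The genes that did not keep their sign on that scale were Mttp and Mogat2 in ileum at week 3, with log2 ratios of -0.07 and -0.55 relative to the epithelial sum in place of 1.10 and 0.61. Fabp2 was higher on both scales, 2.27 relative to the epithelial sum and 3.42 without it. In duodenum at week 3 its log2 ratio went from 0.85 to 0.26 on that scale, and in ileum from day 0 to week 4 from 1.34 to 0.37, with overlapping groups in both. Dgat2 was lower by -2.65 and -1.49. Relative to epithelium, the week 4 fall of Apoa4 in ileum was -4.69 and that of Cd36 -5.07.

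**Figure D4:**
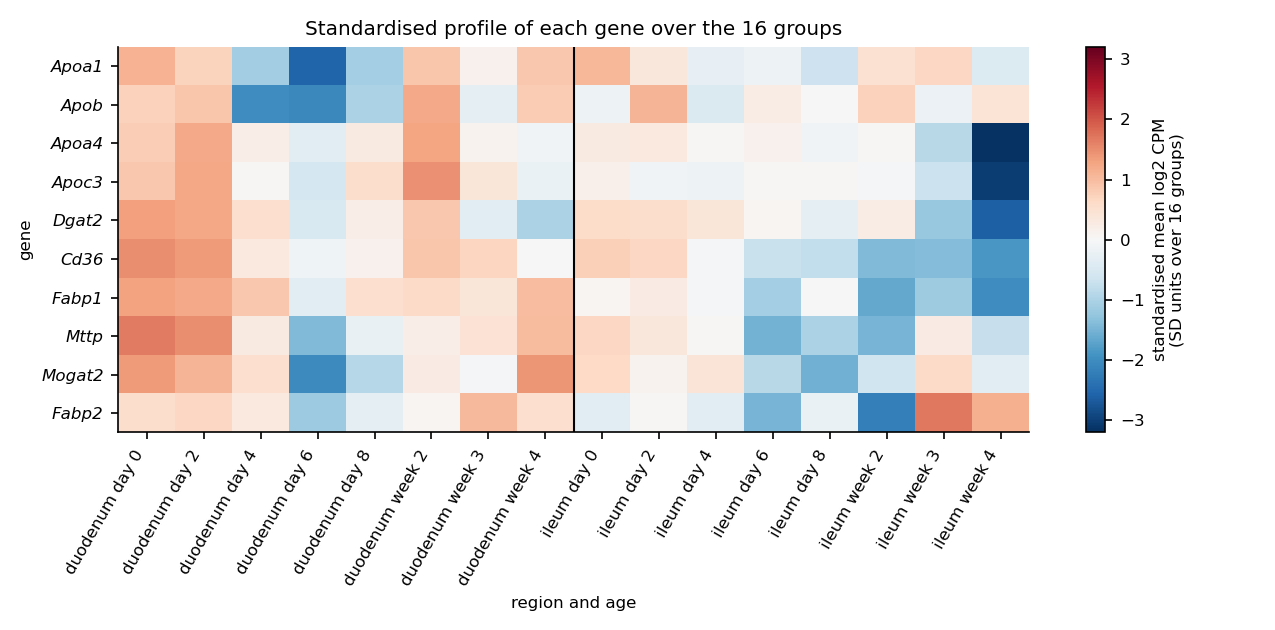
Mean log2 CPM of each gene in the 16 groups, standardised over the groups (red above, blue below the gene's own mean). Apoa4, Apoc3, Dgat2, Cd36 and Fabp1 share their low point at ileum week 4, while Fabp2 has its high point at ileum week 3.

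Some of the 10 genes ran nearly in parallel over the 16 group means. The closest pair was Apoa4 and Apoc3 (Pearson r = 0.979 of mean log2 CPM), and Dgat2 was most like Apoa4 (0.922). Fabp1 was most like Cd36 (0.889), Mttp most like Mogat2 (0.887) and Apoa1 most like Apob (0.808). Fabp2 stood most apart: its highest correlation was with Mttp (0.650) and its lowest with Dgat2 (-0.306). The 16 groups share region, age and library scaling, so these values are a description.

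Neighbours in the genome were not always the most alike. Apoa1 lies beside Apoc3 and Apoa4 but was most like Apob on another chromosome, and Mogat2 and Dgat2 are neighbours but were each most like a gene elsewhere.

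Among 12922 other genes, the mean standardised profile of the 10 was most like P4hb (r = 0.931), which encodes protein disulfide isomerase, the small subunit of the microsomal triglyceride transfer complex. Acsl5 (0.929), an acyl-CoA synthetase, followed, then Rmdn3 (0.926), Sec16b (0.912), which marks the exit sites of the endoplasmic reticulum, and Slc35c2 (0.912). P4hb itself was at 2988 ± 223 CPM in duodenum and 2649 ± 295 CPM in ileum at day 0. At week 4 it was at 3055 ± 545 and 1370.3 ± 565 CPM.

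The rest of the pathway was read from 6 lists of genes, by counts and medians and with no test of a list. Of all genes, 7.70% rose and 10.6% fell at week 3 against week 2 in duodenum, and 12.9% and 13.9% in ileum. Between day 0 and week 4, 20.4% rose and 20.1% fell in duodenum, and 21.5% and 20.4% in ileum. Counts of 2 or fewer below moved by at most 2 genes when single samples were left out. In triglyceride and phospholipid synthesis (8 genes), 4 rose and 0 fell at week 3 against week 2 in duodenum, and 6 rose and 0 fell in ileum, while Dgat2 fell in both. The median log2 fold changes were 0.60 and 0.84, beside 0.03 and 0.03 over all genes. Dgat1, the other enzyme that makes triglyceride from diglyceride, was at 183, 124 and 144 CPM in duodenum at week 2 and at 394, 432 and 327 CPM at week 3 (log2 1.35, SE 0.18, adjusted p = 4.6e-07). In ileum Dgat1 was at 183, 191 and 189.6 CPM at week 2 and at 395, 563 and 517 CPM at week 3 (1.39, SE 0.19, adjusted p = 1.7e-07). Lpin3, a phosphatidate phosphatase, rose by 1.27 and 0.99, and Agpat2, an acyltransferase of the same route, rose by 1.502 in ileum (SE 0.19, adjusted p = 6.7e-08).

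From day 0 to week 4 the synthesis list had 5 higher and 0 lower in duodenum and 6 higher and 1 lower in ileum (5 and 1 without ileum week 4 sample 1). Gpat3, which starts glycerolipid synthesis, rose by 1.64 in duodenum (SE 0.22, adjusted p = 1e-07) and 1.39 in ileum (SE 0.22, adjusted p = 1.9e-06). Dgat1 rose by 1.52 in duodenum (SE 0.19, adjusted p = 1.5e-08). Over the same span the uptake and activation list (9 genes) had 6 higher and 1 lower in duodenum and 6 higher and 3 lower in ileum (3 and 3 without sample 1). Slc27a4, a fatty acid transport protein, rose by 1.64 in duodenum (SE 0.25, adjusted p = 1.3e-06) and Npc1l1, the cholesterol transporter, by 1.51 (SE 0.30, adjusted p = 7e-05). Acsl3, an acyl-CoA synthetase, fell by 2.78 in duodenum and by 3.03 in ileum.

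Another list was droplet and chylomicron assembly (16 genes). At week 3 against week 2, 0 rose and 4 fell in duodenum (1 fell without duodenum week 2 sample 1 or week 3 sample 2 or 3, and 2 without week 3 sample 1), and 7 rose and 3 fell in ileum (1 fell without ileum week 2 sample 3 or week 3 sample 1). At week 4 against day 0, 2 rose and 5 fell in duodenum (3 fell without duodenum day 0 sample 1 or 2 or week 4 sample 1 or 3), and 1 rose and 5 fell in ileum (0 and 7 without ileum week 4 sample 1). Plin2, the coat protein of cytosolic lipid droplets, was at 413, 302 and 350.4 CPM in duodenum at week 2 and at 56.5, 54.2 and 63.2 CPM at week 3 (log2 -2.61, SE 0.20, adjusted p = 5e-13). In ileum it went from 268, 272 and 345 CPM to 39.8, 37.5 and 35.8 CPM (-2.97, SE 0.20, adjusted p = 1.8e-14). Sar1b, the small GTPase that carries chylomicrons out of the endoplasmic reticulum, rose by 1.05 in ileum (SE 0.18, adjusted p = 1.6e-05), and Apobec1, which edits the Apob transcript, by 1.00 (SE 0.18, adjusted p = 2.9e-05).

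Between the regions, this list had called genes in 1 direction, as some other lists also did. At week 4, 0 of its 16 genes were higher and 11 lower in ileum, beside 13.9% of all genes lower. The count was 12 without ileum week 4 sample 1, 6 without ileum week 4 sample 3 and 7 without ileum week 4 sample 2 or duodenum week 4 sample 3. Fold changes of the list had a median of -0.62 beside 0.08 over all genes. At week 2, 0 were higher and 6 lower (11.8% of all genes were lower). Apoc2, the activator of lipoprotein lipase, was lower by -2.35 at week 2 (SE 0.34, adjusted p = 3.3e-06) and -2.67 at week 4 (SE 0.34, adjusted p = 5.6e-07). Creb3l3, a factor that controls Apoa4 and other apolipoprotein genes, was lower by -1.46 at week 4 (SE 0.24, adjusted p = 2.4e-05). The calls of both genes held without ileum week 4 sample 1. Ranges in brackets are the lower counts of other lists when single samples were left out. At week 4 oxidation and ketogenesis (12 genes) had 0 higher and 9 lower in ileum (7 to 11), and uptake and activation 0 and 5 (3 to 7). Synthesis had 0 and 2 (1 to 4) and the regulators 1 and 3 (1 to 5). At week 2 oxidation had 0 and 9 (5 to 10), uptake 0 and 3, and synthesis and the regulators 2 and 1 each.

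Fatty acid oxidation and ketogenesis (12 genes) had more genes falling than rising after week 2. At week 3 against week 2, 5 fell in each region, with 1 higher in duodenum and 2 in ileum. From day 0 to week 4, 8 fell in each region, with 1 higher in each (9 and 0 in ileum without week 4 sample 1). Cpt1a, which admits fatty acids to mitochondria, fell at week 3 against week 2 by 1.07 on the log2 scale in duodenum (SE 0.16, adjusted p = 2.6e-06) and by 1.04 in ileum (SE 0.16, adjusted p = 2.8e-06). Angptl4, an inhibitor of lipoprotein lipase, moved the other way, from 2.34, 2.54 and 3.33 CPM to 68.1, 90.5 and 100.5 CPM in ileum (4.98, SE 0.46, adjusted p = 9.3e-11). By week 4 it was at 21.3, 9.68 and 7.41 CPM.

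**Figure D5:**
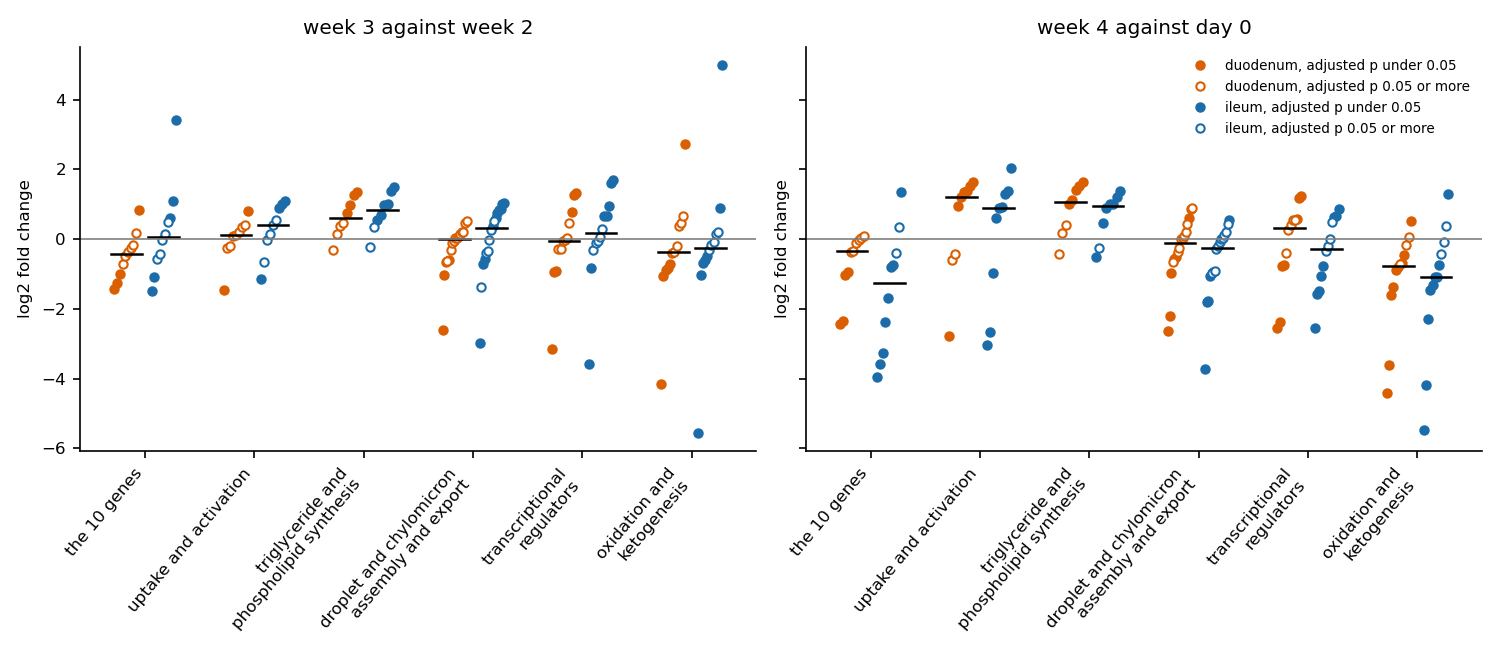
Log2 fold changes of the 10 genes and of 5 lists of the wider pathway at week 3 against week 2 (left) and week 4 against day 0 (right), in duodenum (orange) and ileum (blue); filled points have an adjusted p under 0.05 and black lines are medians. The synthesis list lies above 0 (medians 0.60 and 0.84 at week 3) and the oxidation list below it (-0.38 and -0.24).

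Among 12 transcriptional regulators, 3 rose and 3 fell at week 3 against week 2 in duodenum and 5 rose and 2 fell in ileum (3 rose without ileum week 2 sample 1). Prdm1, which holds the intestine in its suckling state, was at 109, 83.7 and 90.6 CPM in duodenum at week 2 and at 10.96, 11.7 and 9.11 CPM at week 3 (log2 -3.16, SE 0.23, adjusted p = 2.4e-13). It fell by 3.57 in ileum (SE 0.24, adjusted p = 9.9e-15). Hnf4g, a regulator of enterocyte lipid genes, rose by 1.27 and 1.70, and the coactivator gene Ppargc1a by 1.32 and 1.61. Luminal lipases (6 genes, which include pancreatic genes) had 2 higher and 0 lower in duodenum (1 higher without week 2 sample 1 or 3 or week 3 sample 1 or 2) and 1 higher and 0 lower in ileum, where Pnliprp2, a lipase active in suckling pups, rose by 1.44 (SE 0.34, adjusted p = 0.0012).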

How the data were processed

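Total RNA was sequenced from duodenum and ileum at 8 ages, with 3 labelled samples per group and 48 in all. STAR 2.6.1d, Salmon 0.14.2, DESeq2 1.30.1 and the mm10 build are named in the submitters' processing notes, with no role given; strand and filters are not given in the sources used here. The deposited table holds estimated counts per gene as the authors made them, not normalized. The authors' second kind of table, a normalized signal, equals those counts divided by 1 factor per sample (largest relative deviation 2.22e-16 over 40 columns); it gave gene symbols only. Columns were joined to samples by name.

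All values in that table of estimated counts are already whole numbers as deposited, and none was rounded here. The 2 samples labelled day 6 sample 3 were left out, and 46 samples in 16 groups entered one fit with edgeR 4.0.16 in R 4.3.3 (TMM scaling, filterByExpr, robust quasi-likelihood test). Benjamini-Hochberg adjustment ran over 21986 genes within each of 25 tests, and a gene was called at an adjusted p under 0.05. Each SE was derived as |log2 fold change| over the root of its F statistic. A count of one of the 10 genes in a sample was never below 102, so counting error is small beside the spread between samples. The fit did not pair same-numbered samples of the regions; a replicate block was an alternative. No 2 samples of a group were copies of each other.

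The genes named are the 10 chosen genes, up to 3 called genes per list of the pathway with the largest change, and the 5 other genes most like the mean profile. Members and lists were chosen with earlier results of these data known. Alternatives were DESeq2 1.42.0 with its size factors, edgeR with DESeq2-type (RLE) scaling, no filter, a mean count of at least 10, the compared groups only, a replicate block, the day 6 samples kept, the day 4 samples left out, and 46 fits that each left out 1 sample. The code was tested on simulated data. A named gene of the pathway lists is not reported here.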

Additional observations from a re-analysis of the deposited data

Results flagged for a closer look

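The change of Fabp2 from week 2 to week 3 was larger in ileum than in duodenum by 2.57 on the log2 scale, by a test of the difference itself in edgeR's quasi-likelihood fit (adjusted p = 2.8e-05), and the call held when each sample was left out. The change of Apoa4 from day 0 to week 4 differed between the regions by -2.54 (adjusted p = 0.0034), and by -3.78 without ileum week 4 sample 1. The change of Fabp2 from day 0 to week 4 differed by 1.35 (adjusted p = 0.016), and by 1.14 without ileum week 4 sample 1. This last call was lost without duodenum week 4 sample 3 (0.0513), ileum day 0 sample 1 (0.0506) or ileum week 4 sample 3 (0.0515).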

How the results depend on the processing

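Of 98 calls of the 10 genes, 48 were kept under every alternative run, 50 were lost under at least 1, and 0 reversed; 62 were kept under every alternative that left out no single sample. The counts below are of the 10 genes called. Without the low-count filter, the count went from 4 to 2 for duodenum week 2 against day 8, 2 to 1 for duodenum week 4 against week 3, 4 to 2 for duodenum week 4 against day 0, 5 to 3 for ileum week 3 against week 2, and 2 to 1 between the regions at day 2, day 6 and day 8. With only the compared groups, the share of all genes called in that fit, in either direction, stands in brackets. The count went from 4 to 8 for duodenum week 2 against day 8 (35.6%). In ileum it went from 0 to 1 for day 2 against day 0 (9.80%) and 2 to 5 for week 2 against day 8 (19.5%). For ileum week 4 it went from 3 to 1 against week 3 (9.18%) and 8 to 5 against day 0 (37.0%). Between the regions it went from 2 to 8 at day 2 (30.9%), 2 to 6 at day 6 (51.1%), 2 to 7 at day 8 (56.1%) and 7 to 2 at week 4 (14.6%). The 6 at day 6 were 4 higher and 2 lower in ileum, and the 7 at day 8 were 2 higher and 5 lower. For the difference between regions in the change it went from 1 to 2 (week 2 to week 3, 3.18%) and 2 to 0 (day 0 to week 4, 1.97%). This alternative could not be made for the region by age interaction. With the day 6 samples kept as labelled, it went from 4 to 1 (duodenum week 2 against day 8), 2 to 1 (duodenum week 4 against week 3), 7 to 4 (interaction), and between the regions 2 to 0 at day 0, day 2 and day 6 and 2 to 1 at day 8. DESeq2 gave 7 in place of 4 (duodenum week 2 against day 8), 4 in place of 2 (regions at day 2) and 1 in place of 2 (regions at day 8), where RLE scaling and a mean count of at least 10 gave 1 each.

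Same-numbered duodenum and ileum samples correlated in their deviations with a mean r of 0.153 (-0.305 to 0.621, 16 of 23 pairs over 0.1), beside -0.079 for different numbers (8 of 44 over 0.1). At day 0, day 2, week 2 and week 3 all 3 same-number pairs were over 0.1; at day 4, day 8 and week 4 they were not. The labels do not say that a number marks 1 animal. With a replicate block the count went from 2 to 1 for duodenum week 4 against week 3 and for the regions at day 2 and day 8, 0 to 1 for the regions at day 4, and 2 to 4 for the difference in change from day 0 to week 4.

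Leaving out 1 sample at a time gave, in duodenum, 9 to 9 for the age effect, 0 to 0 (day 2 against day 0), 5 to 8 (day 8 against day 2), 0 to 5 (week 2 against day 8), 2 to 3 (week 3 against week 2), 0 to 1 (week 4 against week 3) and 2 to 3 (week 4 against day 0). In ileum the same steps gave 8 to 9, 0 to 0, 1 to 4, 1 to 2, 3 to 4, 3 to 8 and 6 to 9. Between the regions it gave 0 to 1 (day 0), 0 to 0 (day 2), 0 to 1 (day 4, day 6 and day 8), 4 to 7 (week 2), 1 to 4 (week 3), 6 to 8 (week 4), 4 to 9 (interaction), 1 to 1 (change from week 2 to week 3) and 1 to 6 (change from day 0 to week 4).

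Counts over all genes moved more. Examples are 7762 regional calls at day 6 against 0 with the day 6 samples kept, 5855 at day 4 against 354 with only the compared groups, 1461 for ileum week 2 against day 8 against 60 without ileum day 8 sample 1, and 3448 for duodenum week 2 against day 8 against 825 without duodenum week 2 sample 1. The cause was not tested. With 3 samples a group, and 2 at day 6, calls near the threshold are decided by single samples.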

Other observations

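The samples left out of every comparison had these levels, in CPM without TMM scaling. The one labelled duodenum day 6 sample 3 was at 3922 for Apoa1, 15376 for Apoa4, 7131 for Apob and 633 for Dgat2. The one labelled ileum day 6 sample 3 was at 986 for Apoa1, 6384 for Apoa4, 2709 for Apob and 317 for Dgat2. For Cd36 the values were 61.5 and 66.2, and for Fabp2 they were 1344 and 1294.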
